A study of Mus musculus with 12 samples.

Results

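Krt7, Krt19, Epcam, Cldn7, Cftr, Sox9, Prom1 and Spp1 are markers of cholangiocytes, the epithelial cells that line the bile ducts, and of the progenitor-like cells of the ductular reaction. These 8 genes were taken by name from the 52636 genes counted in each liver, by their known roles and not by a threshold on a measured value, though with earlier results of these data known. Genes averaging 12 or more counts per library were tested, which left 12453 genes and 7 of the 8 markers. Cftr, with a mean count of 6.17, did not reach that minimum.

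Liver RNA was sequenced from 12 male C57Bl/6J mice at 16 weeks of age, 6 of them VDD-F1 and 6 VDS-F1, to ask whether vitamin D deficiency before birth leaves a lasting change in the liver. The mothers of the VDD-F1 mice ate a vitamin D deficient diet from before mating until delivery, and received calcium gluconate, and those of the VDS-F1 mice ate a vitamin D sufficient diet. The fathers were on the control diet, and the lack of vitamin D and the added calcium cannot be told apart. From delivery on, all mothers, and after weaning all offspring, were on the sufficient diet. The study's authors state that vitamin D takes time to recover after such a switch, so the deficiency reached into the first part of life after birth. Each library came from the left lateral lobe of 1 mouse, and the litters are not given in the labels, so p-values measure the spread between these mice.

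Cholangiocytes are a small share of the cells of a healthy liver. They form the ducts that carry bile, add bicarbonate and water to it, and are held together by keratins and junction proteins. When the liver is injured or fibrotic, cells with biliary and progenitor markers can multiply around the portal tracts in what is called a ductular reaction, a response driven in part by Notch, Yap and the cytokine Tweak, and osteopontin, the product of Spp1, is one of the proteins such cells secrete. Several of the markers are not restricted to ducts: Spp1 is also made by macrophages, Sox9 by some periportal hepatocytes, and Prom1 by other epithelial cells.

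Between 14275793 and 20815066 fragments were counted on genes in each library, and the median was 16383624 for the VDD-F1 livers and 16125660 for the VDS-F1 livers. VDS6 had 11.1% of its fragments on no annotated exon of the counted strand, the highest of the 12 libraries. The 8 hepatocyte markers summed to between 82368 and 110747 CPM (counts per 1000000 counted fragments, after TMM scaling) per liver, as liver tissue should give, and the 6 pancreatic acinar markers to at most 1.01 CPM. The 8 biliary markers summed to between 24.1 and 120 CPM, so the counts of most of them were low and their fold changes are imprecise, with Sox9 and Spp1 counted better than the rest. In a whole liver, a change in the number of cells of a type and a change in RNA per cell cannot be told apart.

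Epcam and Spp1 had the most similar profiles over the 12 livers among the pairs of the 7 tested markers, as given below, so the sequences just before their starts are printed here as RefSeq gives them on GRCm38.p6. Each window holds the 250 bases before the transcript start, 5′ to 3′ on the gene's strand, at chr17:87635729-87635978 (plus strand) for Epcam and at chr5:104434861-104435110 (plus strand) for Spp1. Capitals mark the letters of the motifs searched.
Epcam: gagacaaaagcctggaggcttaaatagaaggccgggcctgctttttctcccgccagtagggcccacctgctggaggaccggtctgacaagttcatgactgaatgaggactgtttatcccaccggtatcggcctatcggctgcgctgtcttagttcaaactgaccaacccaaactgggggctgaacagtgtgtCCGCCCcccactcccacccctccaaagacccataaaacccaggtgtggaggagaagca
Spp1: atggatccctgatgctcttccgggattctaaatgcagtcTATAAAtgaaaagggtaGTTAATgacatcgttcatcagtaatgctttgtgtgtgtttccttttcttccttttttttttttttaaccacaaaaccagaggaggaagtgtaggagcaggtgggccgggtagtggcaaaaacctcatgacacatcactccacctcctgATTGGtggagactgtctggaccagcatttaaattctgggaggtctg
The motifs were searched on both strands. First came the letters TATAAA of a promoter's core element, CCAAT of another promoter element and GGGCGG of the GC box. Next came the AP-1 site with the letters TGANTCA, the arm GTTAAT of an HNF1 site and the TEAD site with the letters GGAATG. Last came the RBPJ site with the letters GTGGGAA, the arm AGGTCA of a vitamin D receptor site and the whole vitamin D receptor site. That whole site is a pair of such arms, so it also counts as an arm. The Epcam window, with 56.4% G and C, held 1 match, a GC box on the minus strand that began 58 bases before the start. The Spp1 window, with 43.6% G and C, held TATAAA 211 bases and GTTAAT 194 bases before the start, and CCAAT on the minus strand 46 bases before it. RefSeq windows were at hand for 6 of the 8 genes, 9 windows in all, and Krt19 and Sox9 are named only. The GC box was in 5 of these 9 windows and in 32.7% of 32851 windows of all genes, CCAAT in 2 of 9 against 33.8%, TATAAA in 1 of 9 against 12.4%, and GTTAAT in 1 of 9 against 6.43%. The AP-1 letters were in 2 of 9, both of Prom1, against 6.75% of all windows, and the TEAD letters in 1 of 9, of Cldn7, against 12.6%. The arm of the vitamin D receptor site was in both windows of Cldn7 and no other of these genes, against 14.0% of all windows. GTGGGAA was in 0 of 9, against 5.42% of all windows, and the whole vitamin D receptor site in 0 of 9, against 0.00609%. These are matches of letters, not bound sites. The letters of the whole vitamin D receptor site were in only 2 of the 32851 windows. A result of 0 of 9 therefore cannot show that these genes lack such a site. Whether they have one with other letters, or outside the 250 bases, was not tested.

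The mean level of all 8 genes was higher in VDD-F1. The thresholds for a call were an adjusted p-value under 0.05 together with a log2-fold change beyond 1, and 0 of the 7 tested markers passed them. By edgeR's quasi-likelihood test, 5 of the 12453 genes, or 0.0402%, passed them. Spp1, Epcam, Sox9 and Cldn7 had an unadjusted p-value under 0.05, all with the higher mean in VDD-F1, and 9.55% of all genes tested did so in that direction. Across all genes the median log2-fold change was 0.00 and 50.8% had the higher mean in VDD-F1. The groups overlapped in all 8 genes, where every VDD-F1 mouse was above every VDS-F1 mouse in 0.61% of the genes tested. By DESeq2's Wald test 0 of the 7 genes passed the same thresholds and 4 had an unadjusted p-value under 0.05, all higher in VDD-F1. In that direction 1.75% of all genes passed the thresholds by DESeq2 and 9.89% had an unadjusted p-value under 0.05. By voom 0 of the 7 passed and 2, Epcam and Spp1, had an unadjusted p-value under 0.05, both higher in VDD-F1, where 1.45% of all genes passed and 12.3% had such a p-value.

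**Figure D1:**
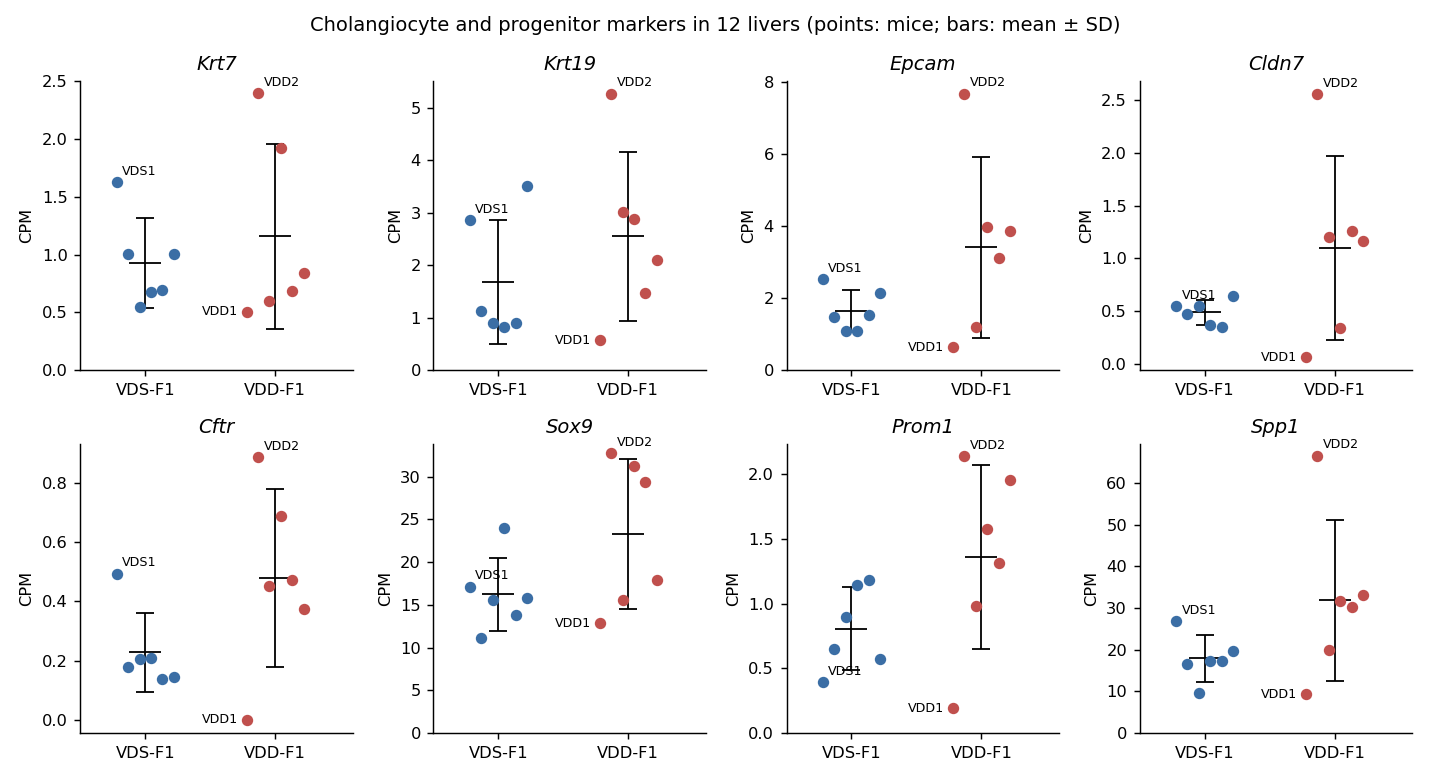
TMM-normalized level in CPM (linear axes, 1 panel per gene) of the 8 markers in each mouse, with points for mice, a bar for the mean and whiskers for the SD (n = 6 per group). VDD2 is the highest point in 8 of 8 panels and VDD1 the lowest in 7 of 8, and the groups overlap in each panel.

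Per kilobase of exon, the order of the mean levels over all 12 livers was Spp1 at 15.1 CPM per kilobase, Sox9 at 4.78, Epcam at 1.15, Krt19 at 1.14, Cldn7 at 0.407, Prom1 at 0.151, Krt7 at 0.148 and Cftr at 0.0455. Spp1 was above Sox9, and Sox9 above Epcam, in 12 of 12 livers. Epcam was above Krt19 in 8 of 12 and Prom1 above Krt7 in 6 of 12, so these neighbours in the order did not separate beyond their spread (SD of 0.895 and 0.767 CPM per kilobase for Epcam and Krt19). Krt19 was above Cldn7 in 12 of 12 livers and Cldn7 above Prom1 in 11 of 12.

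Krt7 and Krt19 encode the keratins that build the intermediate filaments of duct cells and that hepatocytes lack. Krt7 (ENSMUSG00000023039.16, chr15:101411043-101430313, plus strand) had between 8 and 46 counts per library. Its level in VDD-F1 was lowest at 0.505 CPM in VDD1, had a median of 0.761 and was highest at 2.40 in VDD2. In VDS-F1 the lowest was 0.550 CPM in VDS3, the median 0.848 and the highest 1.63 in VDS1. VDD2 and VDD4 lay above all VDS-F1 mice, while the other 4 VDD-F1 mice lay within or below the VDS-F1 range, and the VDD-F1 median was the lower of the 2. On average VDD-F1 livers held 1.16 ± 0.799 CPM and VDS-F1 livers 0.926 ± 0.391 CPM (SD, n = 6 each), with a log2-fold change of 0.31 (SE 0.43). The adjusted p-value was 0.771 by edgeR's quasi-likelihood test. Without VDD2 the log2-fold change was -0.05, so the sign of the difference in Krt7 rested on that liver. It was 0.12 without VDD4, 0.21 without VDS3 and 0.56 without VDS1. Part of Krt7 lies opposite to exons of the predicted gene Gm671, and the count used here takes only fragments of Krt7's own strand.

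Krt19 (ENSMUSG00000020911.14, chr11:100140810-100148665, minus strand) had between 9 and 101 counts per library. It was lowest in VDD-F1 at 0.568 CPM in VDD1, with a median of 2.49 and a highest level of 5.27 in VDD2. The VDS-F1 levels ran from 0.832 CPM in VDS4 over a median of 1.01 to 3.51 in VDS6. Of the VDD-F1 mice only VDD2 was above all VDS-F1 mice, and in VDS-F1 the levels of VDS1 and VDS6, at 2.86 and 3.51 CPM, stood above those of the other 4, which were 1.12 or less. The VDD-F1 mean was 2.55 ± 1.61 CPM and the VDS-F1 mean 1.69 ± 1.18 CPM (SD, n = 6 each). The log2-fold change was 0.60 (SE 0.49), with an adjusted p-value of 0.592 by edgeR's quasi-likelihood test. It was 0.24 without VDD2 and 0.93 without VDS6.

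Epcam and Cldn7 encode surface proteins of epithelial cells, a cell adhesion molecule and a claudin of the tight junctions that binds it. Hepatocytes of an adult liver have little of either. Epcam (ENSMUSG00000045394.8, chr17:87635979-87651129, plus strand) had between 10 and 147 counts per library. The 6 VDD-F1 livers held 0.631 CPM in VDD1, 1.21 in VDD3, 3.10 in VDD5, 3.87 in VDD6, 3.98 in VDD4 and 7.67 in VDD2. The 6 VDS-F1 livers held between 1.09 CPM in VDS4 and 2.52 in VDS1, with a median of 1.50. So 4 VDD-F1 livers lay above all VDS-F1 livers, VDD1 lay below them, and VDD3 lay among the lowest of them. On average VDD-F1 livers held 3.41 ± 2.51 CPM and VDS-F1 livers 1.64 ± 0.576 CPM (SD, n = 6 each). The log2-fold change was 1.06 (SE 0.46), with an unadjusted p-value of 0.0386 and an adjusted p-value of 0.287 by edgeR's quasi-likelihood test. Without VDD2 it was 0.64, with an unadjusted p-value of 0.151, and without VDD1 it was 1.27, with an adjusted p-value of 0.0891.

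Cldn7 (ENSMUSG00000018569.12, chr11:69964779-69967885, plus strand) had between 1 and 49 counts per library. The VDD-F1 livers held 0.0631 CPM in VDD1, 0.343 in VDD4, 1.17 in VDD6, 1.21 in VDD3, 1.26 in VDD5 and 2.56 in VDD2. The VDS-F1 livers held between 0.347 CPM in VDS5 and 0.644 in VDS6, with a median of 0.507. The VDS-F1 livers lay close together, 4 VDD-F1 livers lay above all of them, and VDD1 and VDD4 lay below all of them. The level in VDD1 came from 1 count and that in VDD4 from 5. The VDD-F1 mean was 1.10 ± 0.873 CPM and the VDS-F1 mean 0.487 ± 0.115 CPM (SD, n = 6 each). The log2-fold change of 1.19 (SE 0.55) was the largest among the 7 tested markers in this fit, and its adjusted p-value was 0.311 by edgeR's quasi-likelihood test (unadjusted 0.0484). Without VDD2 it was 0.74, with an unadjusted p-value of 0.174, and by voom it was 0.68. VDD4, the second highest liver in Krt7, Epcam, Cftr and Sox9, was among the low livers in Cldn7.

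Cftr (ENSMUSG00000041301.15, chr6:18170687-18322768, plus strand) encodes the chloride channel of the duct cell's outer membrane, which drives bicarbonate and fluid into bile. Its counts were 0, 17, 6, 10, 9 and 8 in VDD1 to VDD6 and 10, 3, 3, 4, 2 and 2 in VDS1 to VDS6. A count of 0 in VDD1 allows a level of up to 0.189 CPM there, by counting error alone. VDD2 and VDD4, at 0.887 and 0.687 CPM, lay above all VDS-F1 livers, and the other 3 VDD-F1 livers with counts, at 0.373 to 0.473 CPM, lay above 5 of the 6 VDS-F1 livers but under VDS1 at 0.494. In a fit that kept genes with a total count of at least 12, the log2-fold change was 1.02 (SE 0.64), with an adjusted p-value of 0.497 by edgeR. Exons of the predicted gene Gm15592 lie opposite to part of Cftr.

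Sox9 encodes a transcription factor that sets up bile ducts in the embryo and is kept on in adult duct cells and their progenitors. Sox9 (ENSMUSG00000000567.5, chr11:112782224-112787760, plus strand) was counted well, with 189 to 628 counts per library. The VDD-F1 livers held 12.9 CPM in VDD1, 15.5 in VDD3, 17.9 in VDD6, 29.4 in VDD5, 31.2 in VDD4 and 32.8 in VDD2. The VDS-F1 livers ran from 11.2 CPM in VDS2 over a median of 15.6 to 24.0 in VDS4. The VDD-F1 livers thus stood apart from each other, 3 above every VDS-F1 liver and 3 within the VDS-F1 range. Sox9 was the marker in which VDD1 was not the lowest liver and in which VDD2 stood out least, at 1.05 times the next liver. On average VDD-F1 livers held 23.3 ± 8.81 CPM and VDS-F1 livers 16.2 ± 4.33 CPM (SD, n = 6 each). The log2-fold change was 0.52 (SE 0.24), with an unadjusted p-value of 0.0484 and an adjusted p-value of 0.311 by edgeR's quasi-likelihood test, and it was 0.40 without VDD2.

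Prom1 encodes prominin, a membrane protein of cell protrusions that is used to sort progenitor cells. Prom1 (ENSMUSG00000029086.15, chr5:43993620-44102032, minus strand) had between 3 and 42 counts per library. The VDD-F1 livers held 0.189 CPM in VDD1, 0.979 in VDD3, 1.31 in VDD5, 1.58 in VDD4, 1.96 in VDD6 and 2.14 in VDD2. The VDS-F1 livers held between 0.395 CPM in VDS1 and 1.18 in VDS5, with a median of 0.771. Here 4 VDD-F1 livers lay above all VDS-F1 livers, VDD3 lay within their range, and VDD1 lay below. VDS1, which was the highest VDS-F1 liver in 4 of the 8 markers, was the lowest in Prom1. The VDD-F1 mean was 1.36 ± 0.712 CPM and the VDS-F1 mean 0.806 ± 0.320 CPM (SD, n = 6 each). The log2-fold change was 0.77 (SE 0.44), with an adjusted p-value of 0.419 by edgeR's quasi-likelihood test. An exon of the predicted gene Gm16401 lies opposite to part of Prom1.

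Spp1 encodes osteopontin, a secreted matrix protein that binds integrins and CD44 and draws immune and stellate cells. Spp1 (ENSMUSG00000029304.14, chr5:104435118-104441050, plus strand) had between 138 and 1275 counts per library, and the highest mean count of the 8 genes. The VDD-F1 livers held 9.28 CPM in VDD1, 19.9 in VDD3, 30.1 in VDD5, 31.7 in VDD4, 33.2 in VDD6 and 66.5 in VDD2. The VDS-F1 livers held between 9.48 CPM in VDS3 and 26.9 in VDS1, with a median of 17.3. VDD2, VDD6, VDD4 and VDD5 lay above every VDS-F1 liver, and VDD2 was at 2.01 times the next liver. On average VDD-F1 livers held 31.8 ± 19.3 CPM and VDS-F1 livers 17.9 ± 5.62 CPM (SD, n = 6 each). The log2-fold change was 0.83 (SE 0.35), with an unadjusted p-value of 0.0339 and an adjusted p-value of 0.275 by edgeR's quasi-likelihood test, the lowest of the 7 tested markers. It was 0.47 without VDD2 and 1.02, with an adjusted p-value of 0.0664, without VDD1. The predicted gene Gm42793 shares exons with Spp1 on the same strand, so fragments on both were left out of the counts, and Gm42793 itself had 0 counts in each of the 12 libraries.

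The 8 markers shared the order of their extreme livers. VDD2 was the highest of the 12 livers in 8 of 8 markers, as it was in 18.6% of all genes tested, and VDD1 was the lowest in 7 of 8, as in 7.18% of all genes. Against the median of the other 5 VDD-F1 livers, VDD2 was 3.51 times as high in Krt7, 2.51 times in Krt19, 2.47 times in Epcam, 2.21 times in Spp1, 2.19 times in Cldn7, 1.96 times in Cftr, 1.83 times in Sox9 and 1.63 times in Prom1. On the log2 CPM scale the VDD-F1 group had the larger SD in 7 of the 7 tested markers, as in 60.9% of all genes tested. VDS1 was the highest VDS-F1 liver in 4 of 8 markers, as in 22.5% of all genes. With 1 mouse left out, the number of the 7 tested markers at an unadjusted p-value under 0.05 was 0 without VDD2, VDS2, VDS3 or VDS5, 1 without VDD6 or VDS4, 2 or 3 without the others except VDD1, and 5 without VDD1, by edgeR's quasi-likelihood test. Without VDD1 the genes called over the whole table also went from 5 to 260.

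**Figure D2:**
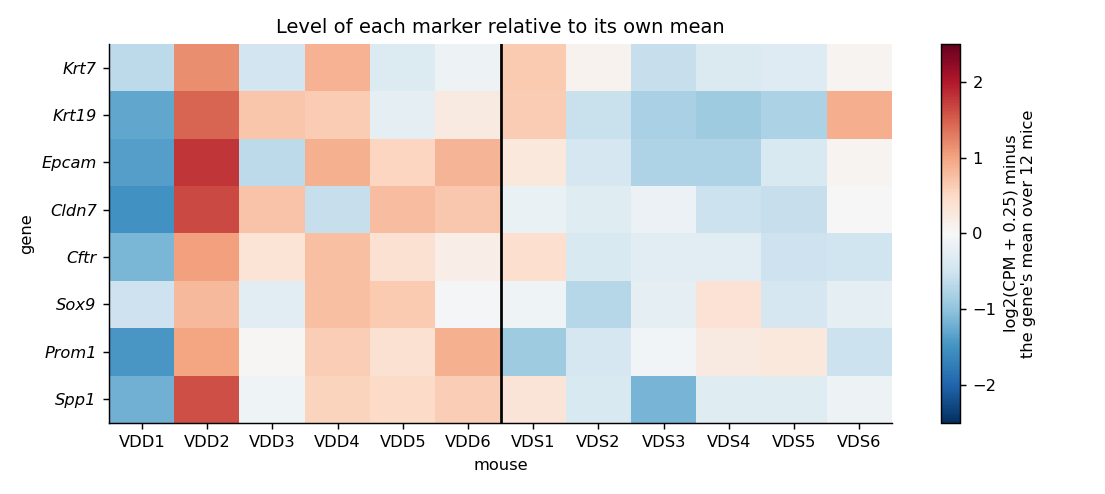
Level of each marker (rows) in each mouse (columns), as log2(CPM + 0.25) minus the gene's mean over the 12 mice, with red above and blue below that mean and a line between VDD-F1 and VDS-F1. The column of VDD2 is above the mean in each of the 8 rows, by 0.81 in Sox9 to 1.78 in Epcam, and the column of VDD1 is below it, by -0.52 in Sox9 to -1.51 in Cldn7.

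Likeness between profiles was measured over the 7 tested markers, without Cftr, as the mean absolute difference of 2 genes' log2 CPM, each centred on its own mean over the 12 livers, so that a smaller value is a closer profile. Spp1 and Epcam, a secreted protein and a surface protein, were the closest pair, at 0.26. Prom1 and Krt19 were the farthest, at 0.79, and Cldn7 and Krt7 were also at 0.79. Prom1 was nearer to Sox9, at 0.48, than to any other of the 7, and the keratins Krt7 and Krt19 were 0.50 apart. These values share the 12 libraries, their depth and the scaling, and are a description.

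Among all genes tested outside the 8, Sh3pxd2b at 0.13 and Itga8 at 0.21 were nearest to Epcam, where the median gene was at 0.80. Islr at 0.18 and Glis3 at 0.20 were nearest to Spp1, with the median gene at 0.64. Lamb1 at 0.18 and Rrm1 at 0.19 were nearest to Sox9, with the median gene at 0.48. Sh3pxd2b codes for an adaptor of matrix-degrading protrusions, Itga8 for an integrin of stellate cells and fibroblasts, Islr for a protein of fibroblasts, Glis3 for a transcription factor whose loss gives cystic disease, Lamb1 for a laminin chain, and Rrm1 for a subunit of ribonucleotide reductase. Krt7 was nearest to Srpx2 at 0.23 and Lpcat2 at 0.24, and Krt19 to Scara3 at 0.27 and the matrix gene Tnxb at 0.29. Cldn7 was nearest to Ddr1, a collagen receptor, at 0.31 and to Arhgap15 at 0.39, and Prom1 to the oxidoreductase gene Nqo1 at 0.28 and to Prickle2 at 0.32.

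The study recorded liver weights for 3 of the VDD-F1 mice (VDD4, VDD5 and VDD6) and 4 of the VDS-F1 mice (VDS3, VDS4, VDS5 and VDS6), if the mouse numbers in that record are those of the libraries. In these 7 livers alone, Epcam passed both thresholds, with a log2-fold change of 1.32 (SE 0.29) and an adjusted p-value of 0.0139 by edgeR's quasi-likelihood test. It was the only one of the 7 tested markers to do so, and 3.06% of all genes passed with the higher mean in VDD-F1. Spp1 had an adjusted p-value of 0.00735 there with a log2-fold change of 0.99 (SE 0.19), just under the fold threshold. The means of Epcam were 3.65 CPM in the 3 VDD-F1 and 1.47 in the 4 VDS-F1 livers, and those of Spp1 were 31.7 and 16.0. Each of the 3 VDD-F1 livers lay above each of the 4 VDS-F1 livers in Epcam, Cftr, Prom1 and Spp1, so in 3 of the 7 tested markers and in Cftr, as in 12% of all genes tested. The adjusted p-values of the other 5 ran from 0.111 for Sox9 over 0.200 for Prom1, 0.240 for Cldn7 and 0.435 for Krt7 to 0.588 for Krt19.

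The 5 livers with no recorded weight, VDD1 to VDD3, VDS1 and VDS2, hold both extreme livers, VDD1 and VDD2. There the log2-fold changes ran from -0.15 in Krt7 over 0.68 in Epcam to 1.33 in Cldn7, each with an adjusted p-value of 0.999, and the standard errors were wide, 1.02 for Epcam and 0.75 for Spp1. The difference between the sets was itself tested, as an interaction of diet with set in 1 edgeR fit of all 12 livers, a test chosen after the data were seen. In that edgeR test 1122 of the 12453 genes had an unadjusted p-value under 0.05, and 11 had an adjusted one under 0.05. The lowest p-value among the markers was 0.394, for Krt7, and the adjusted p-values ran from 0.875 to 0.996. The effect of the diet on these genes was therefore not shown to differ between the sets.

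**Figure D3:**
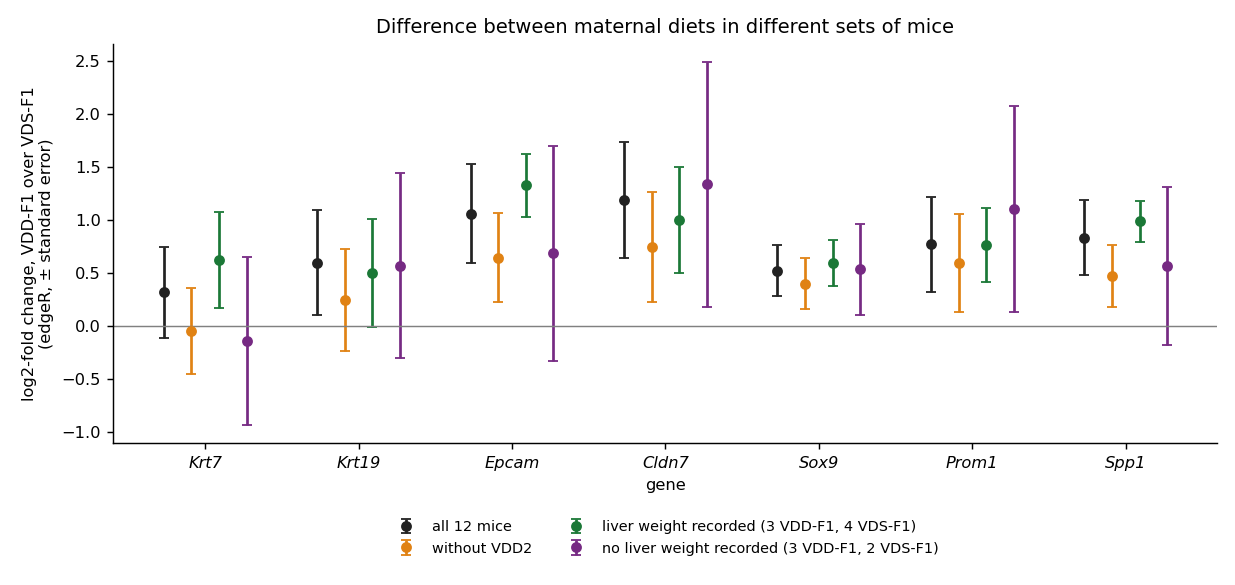
log2-fold change of VDD-F1 over VDS-F1 with its standard error (edgeR) for the 7 tested markers, in all 12 mice, without VDD2, and separately in the 7 mice that have a recorded liver weight and the 5 that have none. All 12 mice give values from 0.31 in Krt7 to 1.19 in Cldn7, the bars of the 5 mice with none are the widest for all 7 genes, and Krt7 falls below 0 without VDD2 and in those 5 mice.

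Other genes of the biliary programme were read from the same fit. The counts in this and the later lists stand beside 9.55% of all genes tested. That share had an unadjusted p-value under 0.05 by edgeR with the higher mean in VDD-F1. In that direction 1.75% of all genes passed the thresholds by DESeq2. Of 19 keratin, junction and surface genes of biliary epithelium, 11 were counted often enough to be tested, 10 of the 11 had the higher mean in VDD-F1, and 3 had an unadjusted p-value under 0.05, all higher in VDD-F1. None passed the thresholds by edgeR or DESeq2, and the median log2-fold change was 0.38. The 3 were Ehf, an epithelial transcription factor, at 1.37 on the log2 scale (adjusted p = 0.182 by edgeR), the keratin gene Krt23 at 1.74 (adjusted p = 0.224) and the cadherin gene Cdh1 at 0.55 (adjusted p = 0.261). Cdh1, Krt8 and Krt18 of this list had VDS-F1 means of 92.8, 158 and 152 CPM, where Epcam had 1.64. The part of hepatocytes in the levels of these genes was not tested. Krt23 had a median level of 1.81 CPM in the VDD-F1 and 0.633 in the VDS-F1 livers, with 7.41 in VDD2. Without VDD2, Krt23 was at 1.04 and 1 of the 11 genes, Ehf, had an unadjusted p-value under 0.05 with the higher mean in VDD-F1. Of the 8 genes of this list under the filter, 5 were highest in VDD2 by CPM. The duct claudin gene Cldn4 had 48 counts there and at most 5 in any other liver, while the epithelial factor gene Grhl2 had 15 there and 16 in VDS1.

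Of 14 genes of biliary transport and of the primary cilium, 12 were tested and 10 had the higher mean in VDD-F1. By edgeR 4 had an unadjusted p-value under 0.05, all higher in VDD-F1, where 9.55% of all genes did so. The median log2-fold change over the 12 was 0.21. Ano1, a calcium-activated chloride channel, did not overlap between the groups, with 3.09 to 7.46 CPM in the VDD-F1 livers against 1.77 to 2.86 CPM in the others. Every VDD-F1 mouse was above every VDS-F1 mouse in 0.61% of all genes tested. The log2-fold change of Ano1 was 0.93 (SE 0.22), with an adjusted p-value of 0.0905 by edgeR and 0.0104 by DESeq2. Its fold was under the threshold by either. Bicc1, an RNA-binding protein whose loss gives cysts in kidney and bile ducts, was at 1.23 (SE 0.40, adjusted p = 0.160 by edgeR). It passed both thresholds by DESeq2 at an adjusted p-value of 0.0391 but not by DESeq2 on genes with a total count of at least 12, at 0.114. Of 25 alternatives Bicc1 passed in 4, the others being voom, leaving out VDD1, and the mice with a recorded liver weight. Itpr3, the main calcium release channel of duct cells, was at 0.63 (adjusted p = 0.249 by edgeR), and Slc10a2, the bile acid importer, at 0.69 (adjusted p = 0.269).

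All 12 transcription factor and Notch genes were tested, and 3 had an unadjusted p-value under 0.05, all higher in VDD-F1. Sox4, a partner of Sox9 in duct formation, had a median level of 11.6 CPM in the VDD-F1 and 3.94 in the VDS-F1 livers, with a log2-fold change of 1.23 (SE 0.37). Its adjusted p-value was 0.134 by edgeR and 0.0283 by DESeq2, where it passed both thresholds. The receptor gene Notch3, known mainly from mural and stellate cells, was at 0.84 (adjusted p = 0.151 by edgeR), and the Notch target gene Hey1 at 1.11 (adjusted p = 0.265). Without VDD2 Hey1 was at 0.59, and 2 of the 12 genes had an unadjusted p-value under 0.05 with the higher mean in VDD-F1. Over the 12 genes the median log2-fold change was 0.17. Of 7 Yap pathway genes, 6 were tested, 0 had an unadjusted p-value under 0.05 in edgeR, and the median was -0.07.

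Of 8 genes of progenitors and of the ductular reaction, 6 were tested, 3 had an unadjusted p-value under 0.05 with the higher mean in VDD-F1, and 1 had it with the lower mean. Ncam1, an adhesion molecule of reactive ductules that stellate cells also make, had a median level of 5.65 CPM in the VDD-F1 and 0.685 in the VDS-F1 livers. Its log2-fold change was 2.97 (SE 0.68), with an adjusted p-value of 0.0855 by edgeR and 0.00693 by DESeq2. Itga6, a laminin receptor of duct cells, was at 1.02 (adjusted p = 0.138 by edgeR), and both it, at 0.0434, and Ncam1 passed the thresholds by DESeq2. Tnfrsf12a, the receptor for Tweak, was at 0.76 (adjusted p = 0.236 by edgeR), and at 0.41 without VDD2. The gene with the lower mean in VDD-F1 was Afp, alpha-fetoprotein, at -3.11, and it had 404 counts in VDS6 and at most 18 in each other liver, so that the log2-fold change without VDS6 was 0.06.

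All 8 osteopontin receptor genes were tested, and 3 had an unadjusted p-value under 0.05, all higher in VDD-F1. The integrin genes Itgb1 and Itgb5 were at 0.19 and 0.27, and Itga4, an integrin of leukocytes, at 0.83 (adjusted p = 0.212, 0.272 and 0.235 by edgeR). Itgb1 had a VDD-F1 mean of 203 ± 10.7 CPM and a VDS-F1 mean of 178 ± 9.28 CPM (SD, n = 6 each). Without VDD2, Itga4 was at 0.53 and 1 of the 8 genes, Itgb1, had an unadjusted p-value under 0.05 with the higher mean in VDD-F1. No gene of this list passed the thresholds by edgeR or DESeq2.

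Markers of other cell types were also read, and no gene of the lists for liver cell types was at 0 in all 12 libraries. The lipid-associated macrophage list holds 6 genes known from macrophages around lipid-laden cells. It summed to between 89.3 and 264 CPM in VDD-F1, with a median of 153. In VDS-F1 it summed to between 35.8 and 117 CPM, with a median of 44.9. Fabp5 was at 0.29 on the log2 scale (adjusted p = 0.872 by edgeR) and alone gave 99.4 of the 135 CPM in VDD1. The lowest VDD-F1 levels of Gpnmb and Trem2, 0.379 and 0.189 CPM, lay within the VDS-F1 range. In that list 5 of 6 genes had an unadjusted p-value under 0.05 with the higher mean in VDD-F1, and 4 passed the thresholds by DESeq2, Gpnmb, Trem2, Lpl and Cd63, whose differences on the log2 scale were 5.72, 3.31, 2.14 and 1.94 (by edgeR their adjusted p-values were 0.0627, 0.0918, 0.0918 and 0.111). Without VDD2, Cd63 was at 1.29. VDD2 held the highest level of Gpnmb, at 45.4 CPM against at most 18.6 in any other liver. Macrophages make Spp1 as well, and the part of these cells in the levels of Spp1 was not tested.

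The stellate cell and fibroblast list of 9 genes summed to between 319 and 1033 CPM in VDD-F1, with a median of 557, and to between 300.3 and 485 CPM in VDS-F1, with a median of 359. In that list 6 of 9 genes had an unadjusted p-value under 0.05, all higher in VDD-F1, and 3 passed the thresholds by DESeq2, among them the collagen genes Col3a1 at 1.78 and Col1a1 at 2.27 (adjusted p = 0.0855 and 0.0883 by edgeR). VDD2 had the highest sum and VDD1 the lowest sum of VDD-F1 in this list, as in the biliary markers. Its part in the results was not tested.

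Mesothelial cells cover the liver and also express keratins, Krt7 and Krt19 among them. Their list of 7 genes summed to between 3.79 and 25.2 CPM in the VDD-F1 livers and between 2.68 and 18.8 CPM in the others, highest in VDD2 and, within VDS-F1, in VDS1 and VDS6. The same livers, VDD2, VDS1 and VDS6, had 3 of the 5 highest levels of Krt19. Of the 6 tested, 1 had an unadjusted p-value under 0.05, Gpm6a at 1.02 (adjusted p = 0.265 by edgeR), which was at 0.63 without VDD2. Its part in the levels of the keratins was not tested.

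The Kupffer cell and macrophage list was highest in VDD2, as the biliary markers were, while its median was lower in VDD-F1. It summed to between 104 and 245 CPM in the VDD-F1 livers against 145 to 243 CPM in the others. The list was mixed, with the higher mean in VDD-F1 in 2 of its 6 genes, Marco at 0.59 and Adgre1 at 0.26 (adjusted p = 0.399 and 0.671 by edgeR). Without VDD2 these were at 0.28 and -0.07. Clec4f, the marker of resident Kupffer cells, was at -0.50 (adjusted p = 0.249) and the 1 gene of the list at an unadjusted p-value under 0.05. Without VDD2 there were 3 such genes, all with the lower mean in VDD-F1, the others being Csf1r at -0.45 and Cd68 at -0.41. The endothelial list ran from 215 to 266 CPM in the VDD-F1 livers against 206 to 291 CPM in the others. It was mixed too, with 2 genes lower and 1 higher at an unadjusted p-value under 0.05, and without VDD2 2 lower and 0 higher. The sinusoidal markers Clec4g and Stab2 were at -0.28 and -0.25, and Lyve1 was at 0.39 (adjusted p = 0.171, 0.259 and 0.293 by edgeR). The lymphocyte list reached 28.9 CPM in VDD2, 21.8 of it from Ptprc, which other leukocytes also express, and 12.6 CPM at most in VDS-F1. Of its 3 tested genes 0 had an unadjusted p-value under 0.05 by edgeR or passed the thresholds. Of the 8 hepatocyte markers 0 passed the thresholds by edgeR or DESeq2 in all 12 livers. At an unadjusted p-value under 0.05 there were 2, both with the lower mean in VDD-F1. Without VDD2 there was 1 with the lower mean, Cyp2e1, and 1 with the higher mean, Alb. The sum of the 8 is mostly albumin, Alb, with mean levels of 73412 and 62238 CPM in VDD-F1 and VDS-F1, and so says little of the other 7. Cyp2e1, a cytochrome of pericentral hepatocytes, had a mean of 3209 ± 1601 CPM in the VDD-F1 livers against 5391 ± 770.2 in the others (SD, n = 6 each). It was at -0.75 on the log2 scale, with an adjusted p-value of 0.174 by edgeR and 0.0460 by DESeq2. By edgeR Cyp2e1 passed both thresholds without VDD3, at -1.03, and in the mice with a recorded liver weight, at -1.27. In the mice with no recorded weight it was at -0.32. The hepatocyte factor gene Hnf4a was at -0.29 (adjusted p = 0.301 by edgeR).

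**Figure D4:**
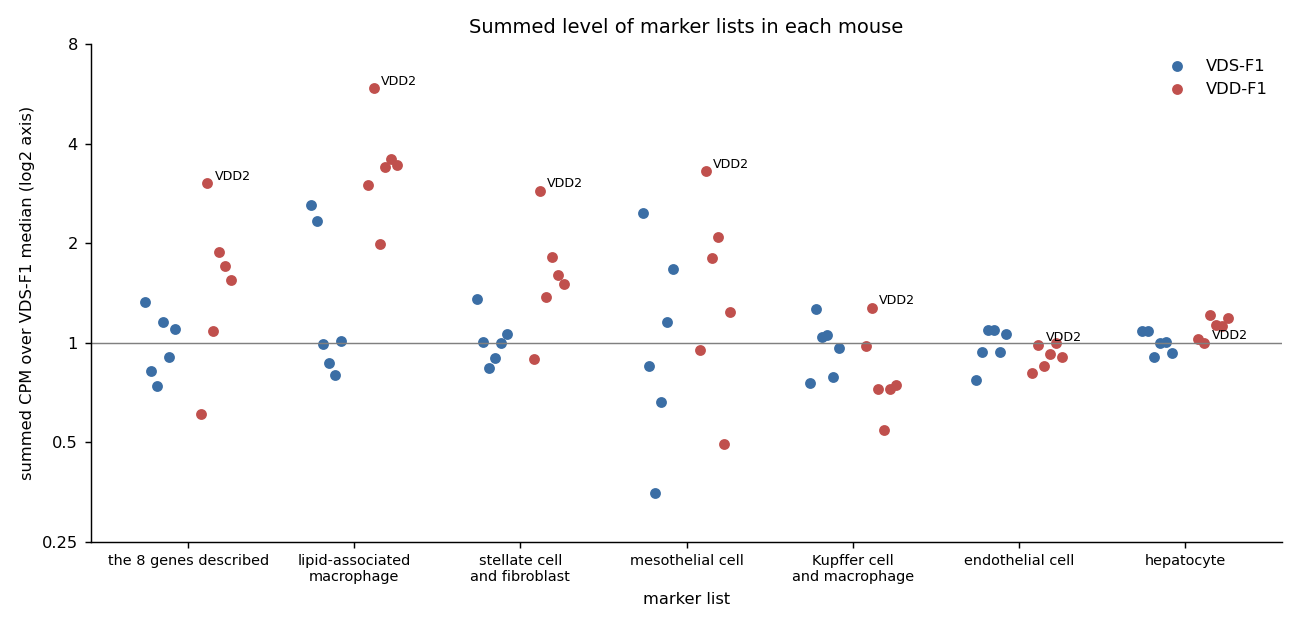
Summed CPM of each marker list in each mouse, divided by the VDS-F1 median of that list (log2 axis), with 1 point per mouse and VDD2 labelled. VDD2 is the highest point for the 8 biliary markers at 120 CPM, and for the lipid-associated macrophage, stellate cell, mesothelial, and Kupffer cell and macrophage lists. The hepatocyte sum is mostly Alb, and the lipid-associated macrophage sum of VDD1 is mostly Fabp5.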

How the data were processed

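RNA-seq of 12 mouse livers was used, with 1 library per mouse. The authors depleted ribosomal RNA, trimmed the reads, aligned them to mm10 with STAR (version not given in the sources used here) and deposited the fragment counts of GENCODE M15 genes, not normalized. The column of reverse-strand counts was taken, since it held 92.7% to 95.8% of stranded counts. Rows that name no gene, 37.42% to 50.33% of fragments, were left out. Positions came from GENCODE M21 on GRCm38, which matched 52403 of 52636 genes.

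VDD-F1 was compared with VDS-F1 in edgeR 4.0.16 under R 4.3.3, with TMM scaling and the quasi-likelihood fit in its legacy form, and Benjamini-Hochberg adjustment ran over all 12453 genes tested. The study's methods name DESeq2 with the same thresholds and minimum count. CPM values are TMM-scaled, and log2 CPM used a prior count of 2. Counts are small for most markers, which limits precision.

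Alternatives were DESeq2 1.42.0, voom with quality weights in limma 3.58.1, DESeq2's size factors, counts without strand, other count minimums, the set of mice as a covariate or alone, and each mouse left out. The newer edgeR form, DESeq2 with a total count of at least 12, leaving out VDD2 and VDS6 together, and the interaction of diet with set were added with the results in view. The sets of mice come from the study's record of liver weights. The scripts were tested on simulated data. Summaries and plots used Python 3.11.15, NumPy 2.4.6, pandas 2.3.3 and matplotlib 3.10.9.

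The markers and gene lists were chosen with earlier results of these data known. Named are all 8 markers, up to 4 genes per list with the smallest unadjusted p-values or that a statement turns on, and for each tested marker the 2 genes with the most similar profile. Cldn4, Grhl2, Marco, Adgre1, Csf1r, Cd68, Stab2, Lyve1, Alb, Cyp2e1, Hnf4a, Fabp5, Krt8, Krt18 and Ptprc were named after their values were seen.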

Additional observations from a re-analysis of the deposited data

Results flagged for a closer look

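Among the 8 markers and 37 genes of the lists that are named here, 90 groups of 6 mice were examined for a mouse far from the other 5 in CPM, and 15 such cases were found, where chance gives about 1 in 20 groups if the values are normal and the groups independent. These genes share the same 12 livers, neither condition was tested, and 5 of the 15 cases are in genes that were named after their values were seen, so the number of cases cannot be read against that rate. The genes of the lists that are not named were not examined, nor were Fabp5, Krt8, Krt18 and Ptprc.

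Among the markers, Cftr in VDS1 was at 0.494 CPM, where the next VDS-F1 liver was at 0.208. This rests on 10 counts against 4. No other marker had such a mouse, although VDD2 was highest in each.

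VDD2 stood apart in 7 of the 37 genes. Bicc1 was at 30.1 CPM in VDD2 and at 14.2 in the next VDD-F1 liver, Hey1 at 3.13 against 1.21, Tnfrsf12a at 12.7 against 5.95, Cd63 at 18.6 against 5.74, Cldn4 at 2.51 against 0.233, Adgre1 at 41.5 against 18.8, and Cd68 at 23.1 against 10.4. VDS1 stood apart in 3 genes, with Tnfrsf12a at 5.97 CPM against 3.64 in the next VDS-F1 liver, the collagen gene Col3a1 at 60.9 against 34.5, and Gpm6a at 3.06 against 1.60. Trem2 was at 0.885 CPM in VDS2 against 0.296, and Marco at 10.9 against 6.19. Cldn4 was at 0.208 CPM in VDS5 against 0.0715, from 3 counts or fewer. Afp was at 28.9 CPM in VDS6 against 0.826, the widest gap of the 15 relative to the range of its group.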

How the results depend on the processing

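Over the alternatives, 174 of 177 log2-fold changes of the markers had the direction reported, and the 3 that did not were of Krt7: -0.15 in the mice with no recorded liver weight, -0.046 without VDD2 and -0.026 without VDD2 and VDS6 together. In the mice with no recorded weight Slc10a2 was at -0.060, Csf1r at 0.036, Cd68 at 0.10, Stab2 at 0.11 and Hnf4a at 0.071, each with its sign reversed, and Afp was at -3.81 in those with one. Adgre1 reversed to -0.0015 by voom, -0.035 in the mice with a recorded weight and -0.092 without VDD2 and VDS6 together. With 1 mouse left out, Afp ran from -3.36 without VDS4 to 0.064 without VDS6, Krt7 from -0.046 to 0.56, Adgre1 from -0.067 to 0.39 and Cd68 from -0.41 to 0.022.

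The number of markers called was 0 in all alternatives except the mice with a recorded weight, where it was 1. The number at an unadjusted p-value under 0.05, 4 by edgeR, was 2 by voom and 0 in the mice with no recorded weight and without VDD2 and VDS6 together, and with 1 mouse left out it ran from 0 (without VDD2, VDS2, VDS3 or VDS5) to 5 (without VDD1). The number of genes called, 5 by edgeR, was 253 by DESeq2, 297 by DESeq2 with a total count of at least 12, 252 by voom, 70 with no filter, 17 in the newer form of edgeR, 21 with the set as a covariate, 536 in the mice with a recorded weight and 0 in the others. With 1 mouse left out it ran from 0 (for 6 of the 12 mice, VDD4, VDD5, VDD6, VDS3, VDS4 and VDS5) to 260 (without VDD1), with 93 without VDD3, 12 without VDS2 and 1 without VDS6. The causes were not tested.

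With the replicate number as a block, 17 genes were called, and 0 markers had an unadjusted p-value under 0.05. The numbers mark different mice, and same-numbered mice deviated from their group means with correlations of -0.0603, 0.103, -0.0762, 0.0663, 0.0607 and -0.0221, so the block pairs nothing in this design. The low counts of Krt7, Cldn7, Cftr and Prom1 limit the precision of their fold changes.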
